A study of Mus musculus with 12 samples.

Results

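The synaptic vesicle and release machinery was followed here as 42 genes, read from a count table of 54232 mouse genes: proteins of the vesicle membrane, synapsins and Rab3 proteins with their effectors, SNAREs and the proteins that take them apart, synaptotagmins, Munc13 priming factors, and scaffolds of the active zone and the ribbon. Members were chosen by name as genes of vesicle storage, docking, fusion and calcium sensing, and the complexins were not among them. All 42 were found in the table. The libraries came from adult male WT (wild-type) mice in which AAV2, an adeno-associated virus, had been injected into the vitreous of the eye and the optic nerve had been crushed, an injury that cuts the axons of retinal ganglion cells. The virus expressed either Olig1, which belongs to the basic helix-loop-helix transcription factors and is best known from oligodendrocyte development, or GFP (green fluorescent protein) in the control eyes, and cells were taken 7 or 14 days after the crush. This gave 4 groups of 3 libraries, called GFP day 7 and GFP day 14 for the controls and Olig1 day 7 and Olig1 day 14 for the others. Every group shares the crush, the virus shell, magnetic separation with a CD90.2 antibody and picking of fluorescent cells with a Unipick device. The labels call the cells retinal ganglion cells, give the pool size as 10 to 15, 15 to 20 or 10 to 20 cells in different places, and record 14 days of virus for all groups. They name neither the promoter in the virus nor the animal behind each library, so the p-values measure the spread between libraries, which may be technical.

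Neurons store transmitter in vesicles whose membrane carries a transporter, synaptophysin and SV2. Synapsins hold the vesicles in reserve, Rab3, RIM and Munc13 dock and prime them, and calcium bound to synaptotagmin lets the SNARE complex of syntaxin, SNAP-25 and synaptobrevin fuse vesicle and cell membrane. In the retina the machinery differs between cell types: photoreceptors and bipolar cells release glutamate at ribbon synapses, which use syntaxin 3, the transporter encoded by Slc17a7 and the ribbon protein RIBEYE and lack synapsins, whereas amacrine cells use conventional synapses with synapsins and syntaxin 1. Ganglion cells send their output to the brain and load glutamate with the transporter encoded by Slc17a6.

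The DNA in front of the members was read first, since Olig1 is a DNA-binding factor. Of the 42 members, 31 were in the RefSeq promoter table (GRCm38.p6), with 43 windows running from 250 bases before to 50 bases after a transcript start. Motifs of 3 kinds were counted on both strands: the E-box CANNTG, which basic helix-loop-helix proteins bind, its special case CAGATG, and, as a motif of photoreceptor homeobox factors, TAATCC. The E-box stood in 34 of the 43 windows (79.1%) and in 72.3% of all 32841 windows. CAGATG stood in 4 of the 43 windows (9.30%) and in 17.2% of all windows. TAATCC stood in 5 of the 43 windows (11.6%), those of Ctbp2, Stx3, Sv2b and Syp, and in 7.06% of all. The 250 bases before the start are printed below for Stx3 and Slc17a7, whose day 7 levels with Olig1 lay below those with GFP, and for Syn1, whose levels lay above, with E-boxes in capitals.
Stx3 (chr19:11819404-11819653, minus strand): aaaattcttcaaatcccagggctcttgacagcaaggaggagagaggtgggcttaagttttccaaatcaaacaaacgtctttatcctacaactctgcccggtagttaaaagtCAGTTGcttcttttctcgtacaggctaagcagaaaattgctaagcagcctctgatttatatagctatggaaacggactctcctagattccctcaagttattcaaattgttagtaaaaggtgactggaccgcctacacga
Slc17a7 (chr7:45163671-45163920, plus strand): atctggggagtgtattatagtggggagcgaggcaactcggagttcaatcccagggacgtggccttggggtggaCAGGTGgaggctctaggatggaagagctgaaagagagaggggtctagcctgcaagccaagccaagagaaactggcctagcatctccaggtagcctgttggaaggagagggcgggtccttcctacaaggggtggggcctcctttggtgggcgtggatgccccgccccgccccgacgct
Syn1 (chrX:20920919-20921168, minus strand): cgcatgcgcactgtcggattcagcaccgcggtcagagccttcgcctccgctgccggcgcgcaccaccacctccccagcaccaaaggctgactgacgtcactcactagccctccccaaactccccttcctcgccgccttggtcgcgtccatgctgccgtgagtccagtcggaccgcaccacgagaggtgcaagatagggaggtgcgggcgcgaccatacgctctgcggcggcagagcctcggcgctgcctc
The Stx3 and Slc17a7 windows each held 1 E-box and the Syn1 window 0, and none of these windows held CAGATG. The TAATCC of Stx3 began at base 31 after the start and is not part of the printed stretch. A match is a run of letters and does not show that a factor binds there. Syngr3, Doc2b, Snap25, Vamp2, Syt4, Syt5, Syt7, Syt12, Syt13, Syt17 and Rims2 were the members without a window.

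Libraries held 12534515 to 27602459 counts. Levels are given as CPM, the usual scaling of counts by the library total, and with 0 counts a level of up to 0.109 to 0.239 CPM (3 counts) remained possible. Such limits, and the intervals given below for ratios of counts, cover counting error only. Olig1 itself, the check of the vector, stood at 0.320, 0 and 0.351 CPM with GFP and 1029, 249 and 723 CPM with Olig1 at day 7, and at 0, 0.0362 and 0.251 and 56.4, 519.8 and 120.1 CPM at day 14 (edgeR adjusted p = 0.0113 and 0.0276). Some libraries stood apart. The summed microglia and macrophage markers reached 2651 CPM in GFP day 7 replicate 3, 1346 in Olig1 day 7 replicate 3, 6352 in GFP day 14 replicate 2 and 8924 in GFP day 14 replicate 3, against at most 47.8 CPM in the other libraries, and plasma cell markers came to 132521 CPM in GFP day 14 replicate 3 alone. Of the 15 ganglion cell markers, Pou4f2 and Pou4f3 were at 0 in all GFP day 7 libraries and Slc17a6, Pou4f1, Pou4f2 and Pou4f3 in all GFP day 14 libraries, and Pou4f2 was also at 0 in Olig1 day 14 replicates 1 and 2 and Pou4f3 in every library. Other genes of the list were present in GFP libraries at uneven levels, such as Tubb3 at 0.328 to 190.1 CPM. Rbpms ran there from 0.0392 to 76.0 CPM and Gap43 from 0 to 35.5 CPM. Isl1, which is also in the bipolar list, stood at 44.6 to 200.4 CPM.

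Together the 42 members made up 0.460% to 2.27% of a library's counts. Between 28 and 41 of them reached 1 CPM in a library. Per kilobase of exon, the scale on which genes can be compared, the mean level over the 12 libraries was highest for Snap25, the SNARE of the cell membrane (766 CPM per kilobase), and Rab3a, the GTPase of the vesicle surface (727). Syt1, the fast calcium sensor, followed at 106, then the vesicle SNARE Vamp2 at 81.1, Syt4 at 74.1, Stx3 at 47.6 and Syt11 at 40.6. The lowest library held 1139 CPM of Snap25, 287 CPM of Rab3a and 278 CPM of Syt1. Doc2b (0.189), Rimbp2 (0.373) and Syt17 (0.446) were at the bottom of the order. Within the synaptotagmins, Syt4 and Syt11 were never under 56.3 and 84.2 CPM, while Syt2, Syt5, Syt6, Syt7, Syt12 and Syt17 were at 0 in at least 1 GFP library.

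**Figure D1:**
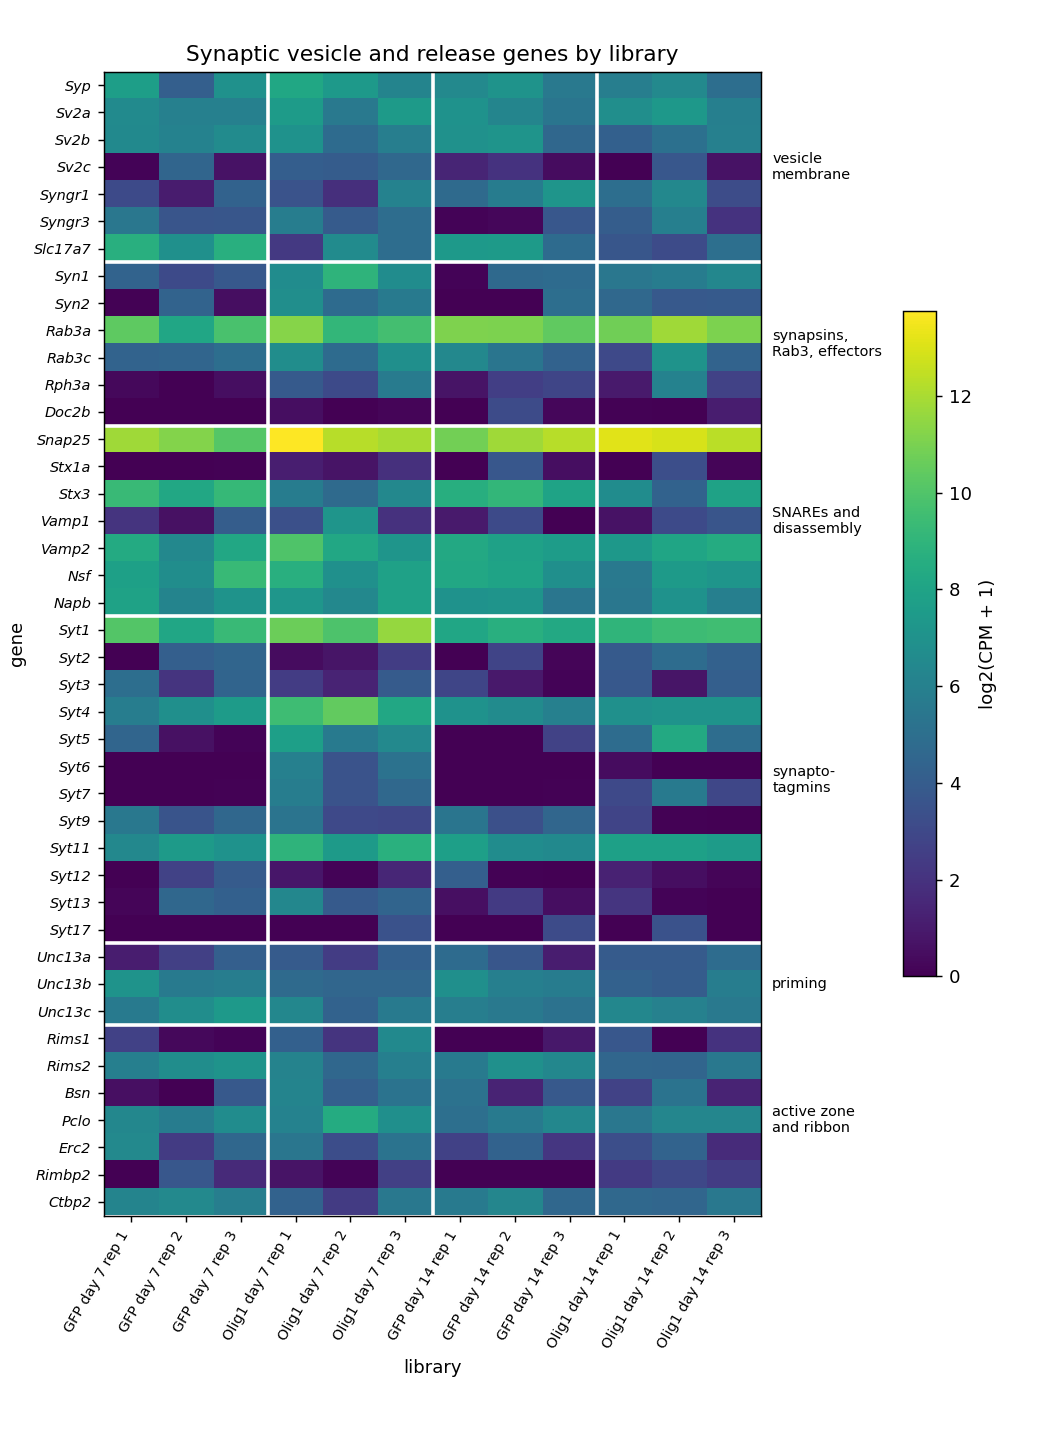
Level of each of the 42 genes (rows, grouped by role) in each of the 12 libraries (columns, in the 4 groups), coloured by log2(CPM + 1). Snap25, Rab3a and Syt1 are bright in every column, Syt6 and Syt7 are dark in the 6 GFP columns, and Stx3 is darker in the 3 Olig1 day 7 columns than in any GFP column.

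The main question was whether Olig1 changed the release machinery of the picked cells. At day 7 none of the 41 members that passed the filter on low counts (all but Doc2b) changed at an adjusted p of 0.05 with edgeR's quasi-likelihood test, where 34 of all 14985 tested genes did (0.227%). By the unadjusted p, 11 members were under 0.05 (26.8% of 41, against 13.9% of all genes), and the DESeq2 Wald test called 5 (6.37% of all genes) and limma voom 6 (2.73%). Of the members with a fitted fold given below, Syn1, Slc17a7 and Syt7 had no DESeq2 adjusted p at day 7 or day 14. DESeq2 could therefore not call them. Of the 41 fitted fold changes 27 were above 0 and 14 below, with a median of 1.18 on the log2 scale against -0.03 for all genes tested. The 3 Olig1 libraries lay wholly above the 3 GFP libraries for 11 members (Syn1, Syn2, Rph3a, Snap25, Stx1a, Syt4, Syt5, Syt6, Syt7, Syt11 and Bsn, 26.8%), as for 9.4% of all genes, and wholly below for 4 (Slc17a7, Stx3, Unc13b and Ctbp2, 9.76%), as for 9.01% of all genes. In a pool, fewer cells of a type and less RNA per cell cannot be told apart, and this holds for every difference below. Passing the filter through the higher group alone makes a gene more likely to differ, so these counts describe the members and were not tested.

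At day 14 the differences were smaller in number. EdgeR again called 0 of 41 members, with 6 of all genes called (0.04%), while 6 members were under an unadjusted p of 0.05 (10.4% of all genes), DESeq2 called 2 (Syt5 and Rimbp2; 4.96% of all genes) and limma voom called 0 (0.2%). The median fitted log2 fold change was 0.35 (0.09 for all genes), with 25 above 0 and 16 below. Olig1 libraries lay wholly above GFP libraries for 7 members (Syn1, Snap25, Syt1, Syt2, Syt5, Syt7 and Rimbp2, 17.1%), as for 7.78% of all genes, and wholly below for 3 (Stx3, Syt9 and Rims2, 7.32%), as for 4.12% of all genes. Syn1, Snap25, Syt5 and Syt7 were among the higher at both days (1.37% of all genes were) and Stx3 was the member that was lower at both (0.901% of all genes were). With CPM of the TMM-scaled total instead of the library total, 14 members were higher (10.8% of all genes) and 3 lower (9.4%) at day 7, and 7 were higher (7.58%) and 3 lower (4.67%) at day 14. On that scale Slc17a7 overlapped at day 7 and Rab3c, Rims1 and Syt1 were apart (all higher), while at day 14 Snap25 and Rims2 overlapped and Syt4 (higher) and Slc17a7 (lower) were apart. Syn1, Syt5, Syt7 and Stx3 kept their separation at both days. Statements on overlap below are for CPM of the library total.

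**Figure D2:**
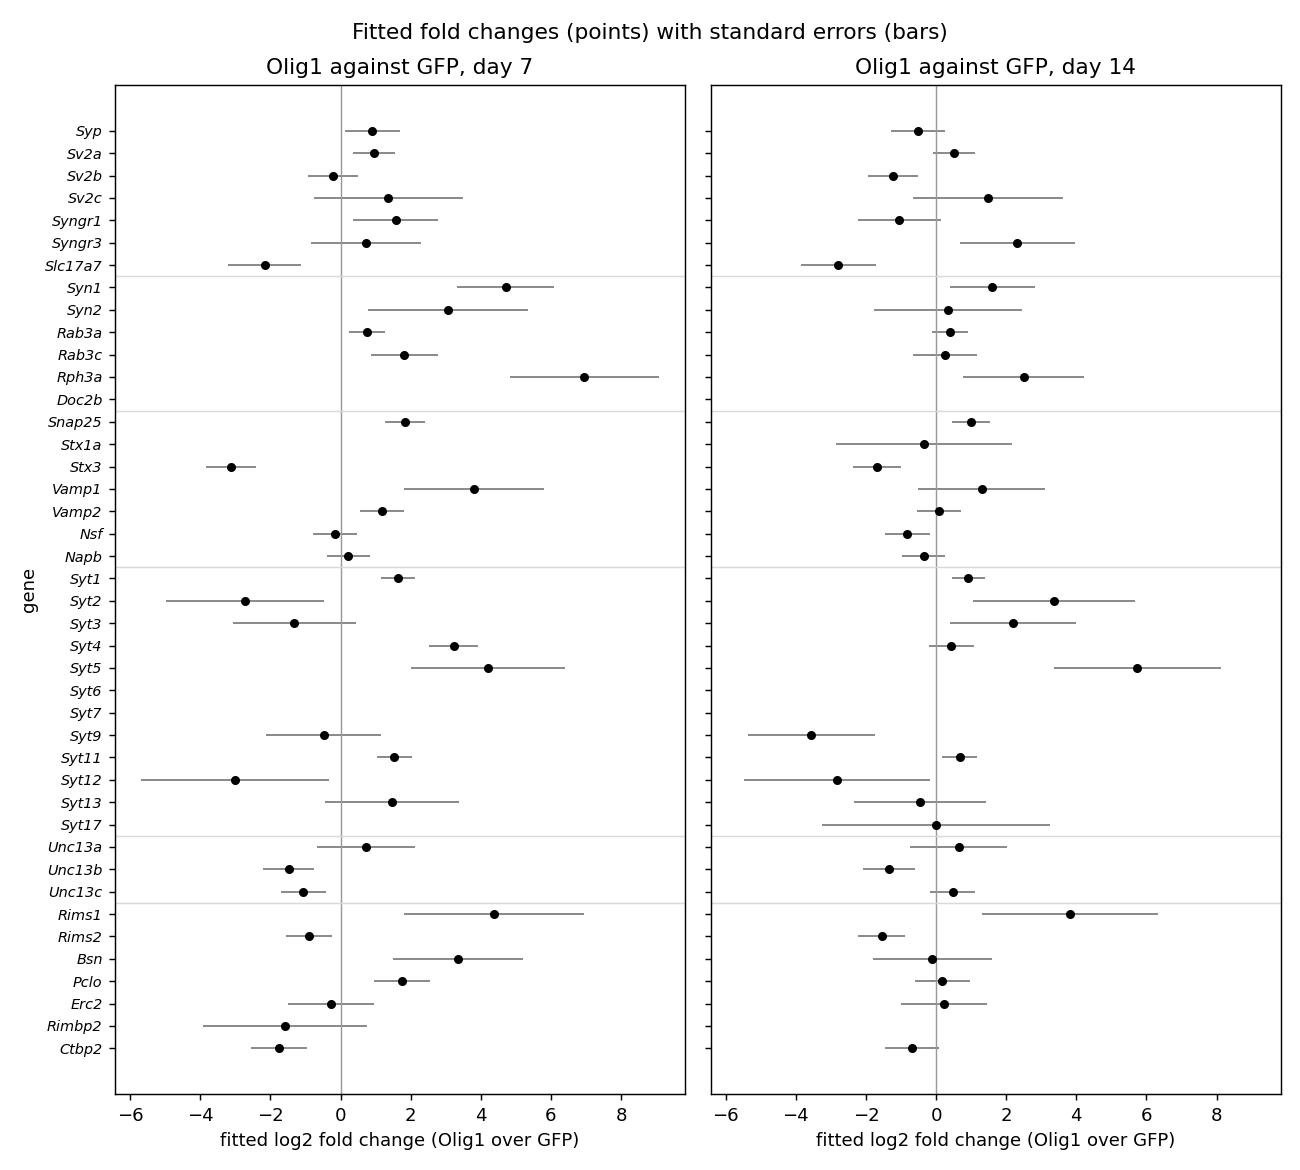
Fitted log2 fold change of Olig1 over GFP (points, with standard errors as bars) for the members by role, at day 7 on the left and day 14 on the right. Doc2b, which was not tested, and members with 3 or fewer counts in a group have no point. Syn1, Snap25, Syt1, Syt4 and Syt5 lie to the right of 0 at day 7 and Stx3, at -3.11 and -1.69, to the left of 0 at both days.

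Over the mean of both days, which takes all 12 libraries, 2 of 41 members changed: Syt7 rose and Stx3 fell, where 98 of all genes were called (0.654%), 57 higher (0.38%) and 41 lower (0.274%). DESeq2 called 7 members (Rph3a, Syt1, Syt4, Syt5, Syt6, Syt11 and Stx3, with no adjusted p given for Syt7; 7.69% of all genes) and limma voom 8 (3.02% of all genes; Slc17a7, Snap25, Stx3, Syt1, Syt5, Syt6, Syt7 and Syt11). For Syn1 and Slc17a7 DESeq2 gave no adjusted p at either single day. By the unadjusted p 16 members were under 0.05 (14.9% of all genes). The median fitted log2 fold change was 0.73. The joint leave-outs that follow each left GFP day 14 with a lone library. Their calls assume that this library varies like the other groups, and no conclusion is drawn from them. Without GFP day 14 replicates 1 and 3 the number called was 0 over both days (0.216% of all genes) and 2 at day 7 (Syn1 and Syt7; 0.458%). Without the 4 libraries high in microglia markers it was 4 over both days (Syn1, Snap25, Syt5 and Syt7; 1.92% of all genes) and 1 at day 14 (Syn1; 0.971%), and there the median log2 fold change of all genes was itself 1.196 over both days and 1.53 at day 14.

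Syt7 (ENSMUSG00000024743, chromosome 19, 10389090 to 10453180) encodes synaptotagmin 7, a slow, high-affinity calcium sensor known for asynchronous release and for exocytosis outside the synapse. At day 7 it stood at 0, 0 and 0.0585 CPM with GFP and at 56.5, 10.7 and 24.2 CPM with Olig1. Its day 14 levels were 0, 0.0362 and 0.0418 CPM with GFP and 7.17, 50.6 and 6.76 CPM with Olig1. The gene was therefore at or near 0 in all 6 GFP libraries and well above 1 CPM in all 6 Olig1 libraries, of which Olig1 day 7 replicate 1 and Olig1 day 14 replicate 2 were highest. Pooled over a day, GFP libraries had 1 count against 1532 with Olig1 at day 7 (ratio of CPM 1814, 95% exact counting interval 325 to 71676) and 2 against 1517 at day 14 (913, 252 to 7549.6). Without Olig1 day 14 replicate 2 the ratio at day 14 was 269. Over both days 3 counts stood against 3049, a ratio of 1215 (415 to 5896), and the edgeR adjusted p was 0.00939, with 0.0766 at day 7 and 0.329 at day 14. The call over both days held without each library in turn (adjusted p 0.0109 to 0.0436) and was lost without GFP day 14 replicates 1 and 3 together (0.0855), the library with the fewest genes detected and the one rich in plasma cell markers. On the other strand the lincRNA Gm26859 shares 384 exon bases with Syt7, and since the strand setting is not given their reads cannot be told apart there.

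Stx3 (ENSMUSG00000041488, chromosome 19, 11775118 to 11819403) encodes syntaxin 3, the membrane SNARE of ribbon synapses. At day 7 it stood at 647, 306 and 593 CPM with GFP and 54.0, 26.2 and 84.1 CPM with Olig1. Its day 14 levels were 388, 547 and 251 and 103, 19.1 and 246 CPM. All Olig1 libraries lay below all GFP libraries at each day, by a wide gap at day 7 and by a narrow one at day 14, where Olig1 replicate 3 came close to GFP replicate 3. The fitted log2 fold change was -2.40 ± 0.49 over both days (SE, edgeR adjusted p = 0.0370), -3.11 ± 0.72 at day 7 (0.0975) and -1.69 ± 0.68 at day 14 (0.438). The call over both days was lost when any 1 of 8 libraries was left out (all 3 of GFP day 7, replicates 1 and 2 of Olig1 day 7, replicates 2 and 3 of GFP day 14 and replicate 1 of Olig1 day 14), with adjusted p of 0.0650 to 0.0950 and log2 fold changes of -2.50 to -2.29. It was also lost without GFP day 14 replicates 1 and 3 together (0.0629) and without the 4 libraries high in microglia markers (0.0855).

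**Figure D3:**
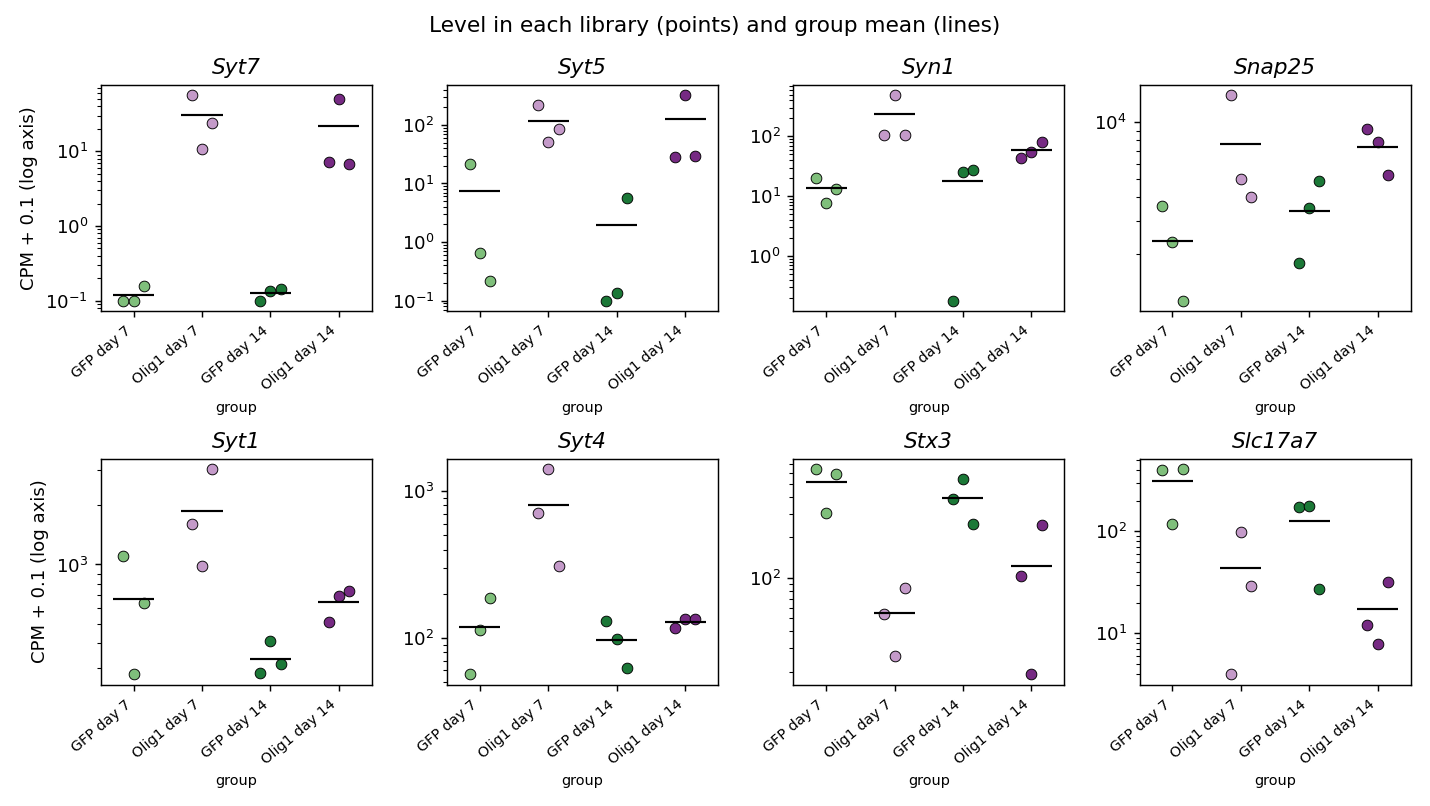
Level of 8 members in each library (points; CPM + 0.1 on a log axis) with the group mean (line), by group. The 6 Olig1 points of Syt7 lie above its 6 GFP points, and at each day the Olig1 points of Stx3 lie below its GFP points.

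Markers of retinal cell types were read beside these members. Rod markers summed to 11188 to 57860 CPM with GFP and 589 to 866 CPM with Olig1 at day 7, with all 13 genes of the list wholly lower, and to 3614 to 51092 and 955 to 11596 CPM at day 14, with 1 of 13 wholly lower. Cone markers summed to 1404 to 1941 and 20.6 to 109 CPM at day 7 (3 of 9 wholly lower) and to 1170 to 5595 and 41.9 to 745 CPM at day 14 (1 of 9), and Cnga3 was at 0 in both groups of day 7. Bipolar markers summed to 1246 to 2174 and 240.1 to 531 CPM at day 7 (6 of 12 wholly lower) and to 1570 to 5737 and 256 to 537 CPM at day 14 (9 of 12), where Vsx1 was at 0 with Olig1. The 4 libraries lowest in Stx3 (Olig1 day 7 replicates 1 to 3 and Olig1 day 14 replicate 2) were also the 4 lowest in summed rod and cone markers. For cones this order rests on Gnb3. It made up 5578 of 5587 CPM in GFP day 14 replicate 1 and 130 of 138 CPM in Olig1 day 14 replicate 1. In Olig1 day 7 replicate 1 it was 9.24 of 21.9 CPM. Without Gnb3 the 4 libraries lowest in Stx3 would not be the 4 lowest in cone markers. The same 4 libraries were not the 4 lowest in bipolar markers. Olig1 day 14 replicate 3 had 331 CPM of these with Stx3 at 246 CPM, and Olig1 day 7 replicate 2 had 531 CPM with Stx3 at 26.2 CPM. Ganglion cell markers summed to 221 to 414 and 3993 to 7347 CPM at day 7 (11 of 15 wholly higher) and to 251 to 497 and 303 to 5240 CPM at day 14 (Nefh, Sncg, Uchl1 and Stmn2 wholly higher, and Isl1, which is also in the bipolar list, wholly lower). By this sum Olig1 day 14 replicate 2, with 5240 CPM, was above the GFP range, and replicates 1 and 3, with 379 and 303 CPM, were within it. Amacrine markers summed to 357 to 764 and 1713 to 4038 CPM at day 7 (7 of 11 wholly higher, with Chat at 0 with GFP) and to 340 to 990 and 667 to 1767 CPM at day 14 (2 of 11, with Chat at 0 in both groups). Müller glia markers summed to 68415 to 146089 and 46982 to 127073 CPM at day 7, where the sums overlapped but 9 of 12 genes were wholly lower, and to 58345 to 127792 and 71795 to 130770 CPM at day 14 (1 of 12 wholly higher). Sums of 3 further lists were apart and lower with Olig1 at day 7. Astrocyte markers came to 483 to 570 CPM with GFP and 30.8 to 138 CPM with Olig1 (2 of 6 wholly lower, Pax2 at 0 with Olig1). Endothelial and pericyte markers came to 376 to 860 and 114 to 208 CPM (3 of 9, Cldn5 and Cdh5 at 0 in both groups). Oligodendrocyte markers came to 69.5 to 112 and 2.07 to 26.8 CPM (1 of 8, with Mag, Mobp, Olig2 and Sox10 at 0 in both groups). At day 14 these 3 sums overlapped. The part of these cell types in the differences of the members was not tested.

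**Figure D4:**
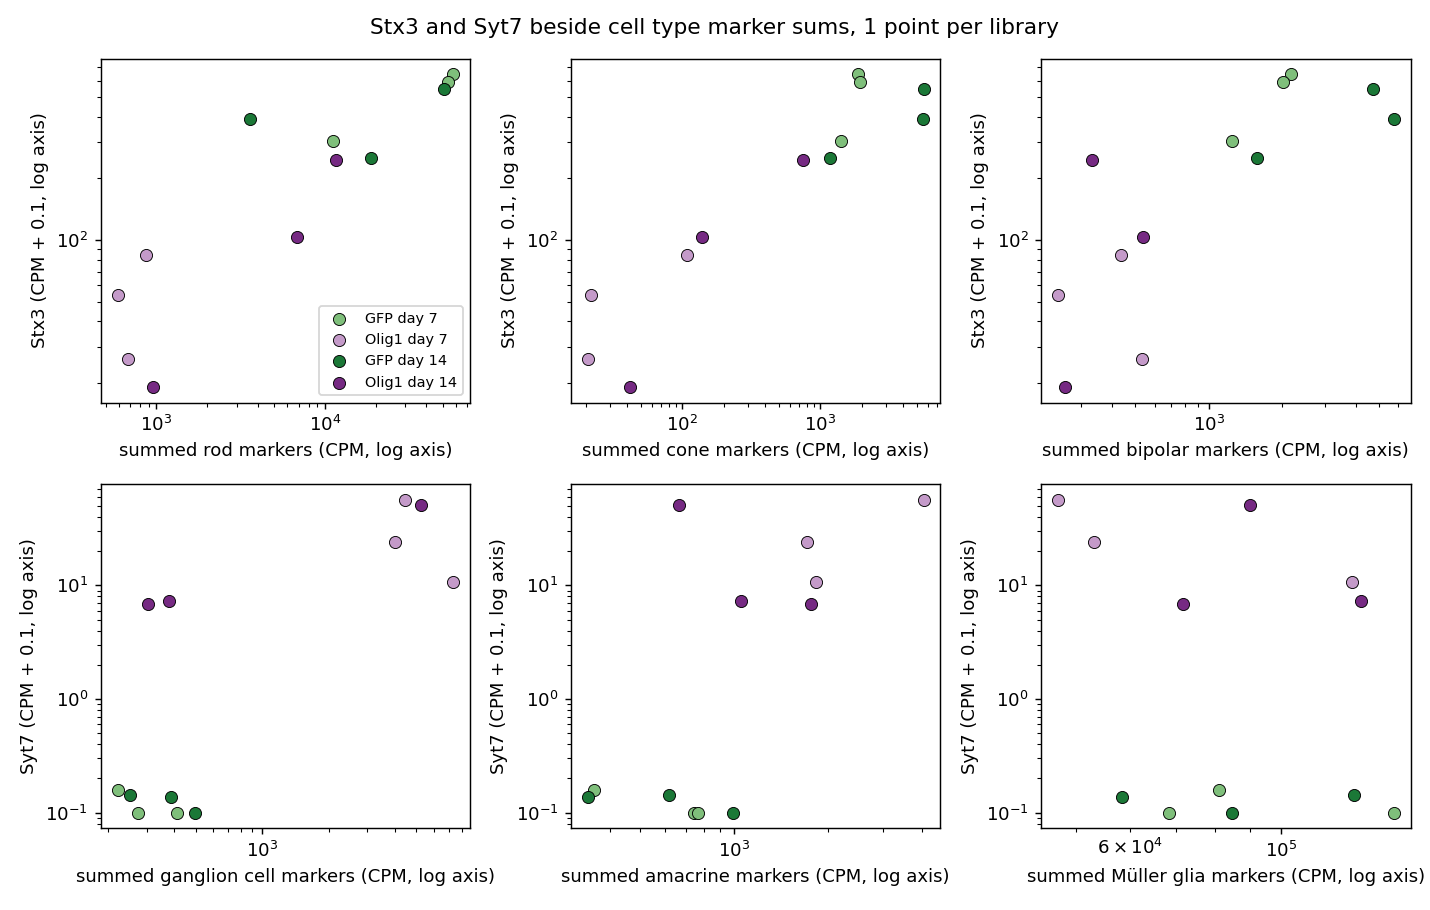
Level of Stx3 (top row) and Syt7 (bottom row), as CPM + 0.1 on a log axis, against the summed CPM of marker genes of 6 retinal cell types (log axes), 1 point per library coloured by group. The 3 Olig1 day 7 libraries are lowest in rod markers (589 to 866 CPM) and low in Stx3. For ganglion cell markers, 2 of the 3 Olig1 day 14 libraries (303 and 379 CPM) lie within the GFP range of day 14 and the other (5240 CPM) above it.

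Among proteins of the vesicle membrane, Slc17a7, the vesicular glutamate transporter of photoreceptors and bipolar cells, had the lowest fitted fold at each day. Its day 7 levels were 402, 119 and 410.4 CPM with GFP and 3.86, 99.0 and 29.3 CPM with Olig1, and its day 14 levels were 174, 179 and 27.1 and 11.97, 7.74 and 31.9 CPM. The groups were apart at day 7 on this scale, with Olig1 replicate 2 close to GFP replicate 2, and overlapped at day 14, where GFP replicate 3 was as low as the Olig1 libraries. Its log2 fold change at day 14 was -2.79 ± 1.06 (edgeR adjusted p = 0.438). The other 6 members of this role overlapped between the viruses at both days. Syp (synaptophysin) ran from 17.1 to 289 CPM over all libraries. Sv2a and Sv2b, the common SV2 glycoproteins, ran from 40.04 to 187 and from 17.9 to 137 CPM. Sv2c was at 0.107, 21.2 and 0.585 CPM with GFP and 16.6, 15.3 and 24.2 CPM with Olig1 at day 7. Most of its GFP counts at that day were in 1 library. The synaptogyrins Syngr1 and Syngr3, small membrane proteins of the vesicle, ran from 1.09 to 145 and from 0.0784 to 60.6 CPM. Summed over the role, the 7 genes came to 302 to 849 CPM with GFP and 369 to 690 CPM with Olig1 at day 7, and to 294 to 581 and 198 to 451 CPM at day 14. Syp shares 875 of its 5211 exon bases with the antisense gene Gm14703.

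All 5 tested genes of the synapsin and Rab3 role had positive fitted folds at both days. The median log2 fold change of all genes was -0.03 at day 7 and 0.09 at day 14. Of the 5 genes, 2 (Syn1 and Rph3a) were under an unadjusted edgeR p of 0.05 at day 7 (13.9% of all genes) and 0 at day 14 (10.4% of all genes). Syn1, which tethers vesicles in the reserve pool, stood at 19.7, 7.55 and 13.0 CPM with GFP and 104, 487 and 103 CPM with Olig1 at day 7, and at 0.0784, 24.9 and 27.4 and 43.1, 54.1 and 81.1 CPM at day 14. No Olig1 library reached down to a GFP library at either day, and Olig1 day 7 replicate 2 was far above the rest. The log2 fold change was 4.71 ± 1.39 at day 7 (edgeR adjusted p = 0.203) and 2.89 without Olig1 day 7 replicate 2. Syn2, its relative, stood at 0.0533, 20.1 and 0.410 and 109.8, 27.4 and 49.6 CPM at day 7 and at 0, 0 and 30.9 and 24.1, 13.3 and 14.0 CPM at day 14. Rph3a encodes rabphilin, which binds Rab3 on vesicles. It stood at 0.213, 0 and 0.410 CPM with GFP and 14.0, 7.58 and 52.7 CPM with Olig1 at day 7, a log2 fold change of 6.96 ± 2.13 (adjusted p = 0.219). At day 14 its values of 0.666, 4.85 and 6.22 and 1.02, 66.7 and 5.48 CPM overlapped, and the fitted log2 fold change of 2.51 became -0.50 without Olig1 day 14 replicate 2. Rab3a ran from 287 to 3539 CPM and Rab3c from 7.12 to 133 CPM with overlap at both days. Doc2b, a calcium sensor, did not pass the filter: it was at 0 in all GFP day 7 libraries and reached 7.97 CPM in GFP day 14 replicate 2.

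In the SNARE role the 2 members with the smallest p at day 7, Stx3 and Snap25, had folds of opposite sign. Snap25 stood at 3609.8, 2333 and 1139 CPM with GFP and 13878, 4984 and 4009 CPM with Olig1 at day 7, and at 1807, 3503 and 4894 and 9143, 7829.6 and 5261 CPM at day 14. The lowest Olig1 library lay just above the highest GFP library at each day. Its log2 fold change at day 7 was 1.84 ± 0.56 (edgeR adjusted p = 0.219), beside -3.11 ± 0.72 for Stx3. Stx1a, the syntaxin of conventional synapses, was rare: it stood at 0, 0 and 0.0585 CPM with GFP and 1.196, 0.638 and 2.70 CPM with Olig1 at day 7, a ratio of 82.9 from 1 pooled count against 70 (95% exact counting interval 14.4 to 3319). At day 14 it overlapped, with 0, 12.2 and 0.418 and 0, 8.96 and 0.160 CPM. Vamp2, the main vesicle SNARE of the brain, had means of 244 ± 139 and 483 ± 458 CPM at day 7 and 248 ± 62.8 and 261 ± 96.6 CPM at day 14 (SD, n = 3). Vamp1 ran from 0 to 144 CPM, the highest in Olig1 day 7 replicate 2. Nsf, the ATPase that separates spent SNAREs, and its adaptor Napb overlapped between the viruses at both days, with Nsf at 45.9 to 608 CPM and Napb at 41.0 to 243 CPM.

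Of the 12 synaptotagmins, 8 had positive and 4 negative fitted folds at each day, and 5 were under an unadjusted p of 0.05 at day 7 (13.9% of all genes) and 2 at day 14 (10.4% of all genes). Syt1, a sensor of fast release, stood at 1099, 278 and 639 CPM with GFP and 1599, 978 and 3046 CPM with Olig1 at day 7, where GFP replicate 1 lay above Olig1 replicate 2, and at 282, 408 and 312 and 510.4, 692 and 735 CPM at day 14, where the groups were apart. Its log2 fold change at day 7 was 1.64 ± 0.48 (edgeR adjusted p = 0.203). Syt4, whose first calcium-binding domain is altered, stood at 56.3, 114 and 186 CPM with GFP and 704, 1416 and 308 CPM with Olig1 at day 7. This was a log2 fold change of 3.22 ± 0.71 (adjusted p = 0.0791, with 0.0247 to 0.382 when each library was left out). The fold was 3.68 without Olig1 day 7 replicate 3, the leave-out with an adjusted p under 0.05, and 1.96 without Olig1 day 7 replicate 2. At day 14 Syt4 was at 129.7, 98.5 and 62.0 and 117, 135 and 134 CPM, with overlap. Syt11, a relative of Syt4, stood at 84.2, 179 and 127 and 493, 182 and 422 CPM at day 7 and at 214, 102 and 92.3 and 223, 229 and 188 CPM at day 14.

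Syt5 and Syt6 were, like Syt7, nearly missing from most GFP libraries and present in every Olig1 library of day 7. Syt5 stood at 21.2, 0.547 and 0.117 CPM with GFP and 216, 50.7 and 86.5 CPM with Olig1 at day 7, and at 0, 0.0362 and 5.55 and 27.8, 323 and 29.2 CPM at day 14. The groups were apart at both days although 1 GFP library at each held several CPM. Its log2 fold change at day 14 was 5.75 ± 2.37 (edgeR adjusted p = 0.438) and 3.56 without Olig1 day 14 replicate 2. Syt6 was at 0 in all 6 GFP libraries and at 63.3, 10.5 and 36.1 CPM with Olig1 at day 7, which is at least 722-fold higher by a floor of 3 counts over the GFP group (edgeR adjusted p = 0.179). That bound ranged from 440-fold without Olig1 day 7 replicate 1 to 924-fold without Olig1 day 7 replicate 2. At day 14 it had 8 counts in Olig1 replicate 1 and 0 in the other libraries. Syt6 shares 505 exon bases with Atg4a-ps on the other strand, a gene of at most 3 counts.

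The remaining synaptotagmins were low or uneven. Syt9, another fast sensor, stood at 40.2, 9.13 and 22.0 CPM with GFP and 6.11, 0.0407 and 0 CPM with Olig1 at day 14, with no overlap (log2 fold change -3.56 ± 1.81, edgeR adjusted p = 0.533), and overlapped at day 7. With each library left out in turn its day 14 fold ranged from -9.75 to -2.89. Syt2, the fast sensor of the hindbrain and spinal cord, stood at 0, 6.12 and 0.125 and 13.8, 27.7 and 18.7 CPM at day 14, and at 0, 16.9 and 21.8 and 0.381, 0.718 and 4.73 CPM at day 7, where the highest values were in 2 GFP libraries. Syt3 ran from 0.0835 to 29.9 CPM, Syt12 from 0 to 16.8 CPM and Syt13 from 0 to 81.1 CPM, each with overlap between the viruses at both days. Syt17 was found in 3 libraries, Olig1 day 7 replicate 3 (10.0 CPM), GFP day 14 replicate 3 (7.89) and Olig1 day 14 replicate 2 (9.94). Of the 5539 exon bases of Syt12, 950 are shared with A930001C03Rik on the other strand.

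The Munc13 genes make docked vesicles ready to fuse. Unc13b stood at 135, 47.5 and 55.4 CPM with GFP and 26.0, 21.9 and 22.3 CPM with Olig1 at day 7, where the Olig1 libraries lay close together below all GFP libraries, and at 114, 59.7 and 53.7 and 18.5, 15.0 and 56.1 CPM at day 14, where Olig1 replicate 3 was within the GFP range. Unc13a had means of 7.67 ± 8.07 and 12.1 ± 6.79 CPM at day 7 and 13.4 ± 13.2 and 18.9 ± 7.63 CPM at day 14 (SD, n = 3). Unc13c had means of 107 ± 59.3, 50.1 ± 30.6, 46.2 ± 10.9 and 64.1 ± 18.1 CPM in the same order. Both overlapped between the viruses at each day.

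At the active zone, where RIM proteins recruit calcium channels and vesicles, Rims2 stood at 48.3, 119.9 and 81.5 CPM with GFP and 22.6, 21.8 and 44.2 CPM with Olig1 at day 14, below all GFP libraries (log2 fold change -1.55 ± 0.66, edgeR adjusted p = 0.438). At day 7 its values of 59.8, 105 and 135 and 71.0, 23.3 and 60.5 CPM overlapped. Rims1 stood at 5.27, 0.219 and 0.117 and 17.7, 3.27 and 91.9 CPM at day 7 and at 0, 0 and 0.835 and 12.3, 0 and 3.09 CPM at day 14. Ctbp2, whose locus encodes both a nuclear corepressor and RIBEYE, stood at 74.1, 89.1 and 58.6 CPM with GFP and 18.8, 4.23 and 44.3 CPM with Olig1 at day 7, apart, and at 50.5, 78.7 and 23.1 and 24.1, 22.2 and 45.1 CPM at day 14, with overlap. Counts per gene do not part the 2 products. Bsn, the scaffold that anchors the ribbon and spans the active zone, stood at 0.479, 0 and 13.2 and 72.7, 16.8 and 37.4 CPM at day 7, with no overlap, and at 34.9, 1.56 and 13.1 and 5.57, 37.4 and 1.60 CPM at day 14, with overlap. Rimbp2, which ties RIM to calcium channels, was at 0 in all GFP day 14 libraries and at 4.02, 6.80 and 4.36 CPM with Olig1, at least 133-fold higher by a floor of 3 counts over the GFP group (edgeR adjusted p = 0.438, DESeq2 0.00410). At day 7 it was at 0, 12.5 and 2.17 and 0.652, 0.0798 and 5.00 CPM, with the highest value in a GFP library. The scaffolds Pclo and Erc2 overlapped at both days, with Pclo at 31.3 to 358 CPM and Erc2 at 2.29 to 87.6 CPM.

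Beyond the members, a further list of 62 genes of the same pathway (other transporters, SNAREs, SM proteins, calcium sensors, Rab3 and active zone proteins, and endocytosis genes) was read from the same fit. Of the 59 that passed the filter, 0 were called at day 7 and 0 at day 14 (9 and 7 under an unadjusted p of 0.05, 5 and 3 called by DESeq2, 3 and 0 by limma voom, against shares of all genes of 13.9% and 10.4%, 6.37% and 4.96%, and 2.73% and 0.2%), with median fitted log2 fold changes of 0.31 and 0.17. Over both days 2 rose and 0 fell. Rims3, a short RIM of the active zone, stood at 0, 0.0547 and 0 CPM with GFP and 65.1, 34.6 and 38.0 CPM with Olig1 at day 7, and at 0, 0 and 0 and 0.872, 2.32 and 3.62 CPM at day 14. Pooled over both days this was 1 count against 2337, a ratio of 2794 (95% exact counting interval 501 to 110420), with an edgeR adjusted p of 0.0114. Among the fits that left out a single library, it exceeded 0.05 without GFP day 7 replicate 3 (0.0548) or Olig1 day 7 replicate 2 (0.0548). Slc17a6, which loads glutamate in ganglion cells, was at 0.107, 0 and 0 and 92.6, 30.8 and 36.0 CPM at day 7 and at 0, 0 and 0 and 0, 25.7 and 1.06 CPM at day 14. Pooled over both days its counts were 2 against 3274, a ratio of 1957 (541 to 16169.8), with an edgeR adjusted p of 0.0326, and the call was lost when any 1 of 8 libraries was left out (all 3 of GFP day 7, replicates 1 and 2 of Olig1 day 7, replicates 2 and 3 of GFP day 14 and replicate 2 of Olig1 day 14; 0.0634 to 0.104). Slc17a6 is also 1 of the 15 ganglion cell markers.

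Whether the effect of the virus differed between days was tested as an interaction. None of the 41 members passed (edgeR, 0.0% of all genes called), 2 were under an unadjusted p of 0.05 (9.9% of all genes), DESeq2 called 1 (Rimbp2; 3.52% of all genes) and limma voom 0 (0% of all genes). Syt4 had the smallest p: the log2 fold change at day 14 minus that at day 7 was -2.79 ± 0.93 (edgeR adjusted p = 0.355).

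Time was also compared within each virus, in contrasts that share their libraries with those above. With GFP, 0 of 41 members changed between day 7 and day 14 (edgeR, 0.0% of all genes), 5 were under an unadjusted p of 0.05 (10.3% of all genes), DESeq2 called 2 (Rph3a and Rimbp2; 4.31% of all genes) and limma voom 0 (0.12%). Day 14 libraries lay wholly above day 7 libraries for Syngr1, Rab3a and Rph3a (3.96% of all genes) and wholly below for 0 (10.5% of all genes). Rab3a went from 1308, 287 and 911 to 2202, 2107 and 1367 CPM. With Olig1, edgeR called 0 members and 5 of all genes (0.0334%), 5 members were under an unadjusted p of 0.05 (11.8% of all genes), DESeq2 called Syt4 and Syt6 (4.18% of all genes), and limma voom Syt6 (1.95%). Day 14 libraries lay wholly below day 7 libraries for 8 members (Sv2c, Syn1, Syn2, Syt1, Syt4, Syt6, Syt9 and Syt13, 19.5%), as for 10.6% of all genes, and wholly above for Syt2 (5.55% of all genes). Syt4 differed most by p: it was lower at day 14 in every library, with a log2 fold change of -2.83 ± 0.69 (edgeR adjusted p = 0.322). Scaling by DESeq2 size factors moved the median fold of all genes from -0.14 to -0.25 with GFP and from -0.01 to -0.19 with Olig1, and left the counts of members called at 0 while all genes called with Olig1 went from 5 to 0. The ganglion cell marker sums given above were lower in Olig1 day 14 replicates 1 and 3 than in the Olig1 day 7 libraries, with replicate 2 within the day 7 range. Rod, horizontal (mostly Calb1 at day 14) and astrocyte sums with Olig1 were wholly higher at day 14. They went from 589 to 866, 178 to 240 and 30.8 to 138 CPM to 955 to 11596, 3806 to 12463 and 167 to 274 CPM. Microglia and macrophage sums were wholly lower, at 2.57 to 4.68 CPM against 24.6 to 1346 CPM. The part of these cell types in the time contrast was not tested.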

How the data were processed

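Polyadenylated RNA was amplified over 20 PCR cycles with the SMART-Seq HT kit, per the labels' protocols, in 12 libraries of picked mouse retinal cells. The authors deposited whole-number read counts for each Ensembl gene, made with FastQC, HISAT2 and HTSeq on mm10, per the submitters' processing notes. For versions, annotation and strand setting, nothing was given in the sources used here. The series table was used, since the files of 4 single samples ended early. Of its 54232 genes, 54165 took a symbol and coordinates from GENCODE M21 (GRCm38). The labels mention batches and spike-in RNA without tying them to libraries, so neither entered a test.

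The test was edgeR 4.0.16 in R 4.3.3, with TMM scaling, genes kept by filterByExpr at a minimum count of 10 and the robust quasi-likelihood F test, in 1 fit of 12 libraries on 4 groups with no covariate. Benjamini-Hochberg adjustment ran over all 14985 genes that passed, with calls at an adjusted p of 0.05, and SE is the size of the log2 fold change over the root of its F statistic. The common biological coefficient of variation was 1.351. The script was tested on simulated data with the spread of these libraries, for Olig1 against GFP at day 7. It called 1 of 100 genes changed 4-fold and 34 of 100 changed 64-fold, with 1 false call, so a count of 0 called shows little. Total counts ran from 12534515 to 27602459. Libraries of a group correlated at 0.745 to 0.840 and libraries of different groups at 0.647 to 0.842 across genes on log2(CPM + 1), and no pair was a duplicate. Where a group had 0 counts, a floor of 3 counts gave a bound, and where it had 1 to 3 counts, the ratio of pooled counts took a 95% exact binomial interval. Alternatives were DESeq2 size factors in edgeR, DESeq2 1.42.0, voom of limma 3.58.1 with weights per sample, dropping the filter or raising it to 10 counts in 6 libraries, a replicate block, only the groups compared, and leaving out each library. Both joint leave-outs and the overlap on the TMM scale were chosen after seeing the data. Figures were drawn with matplotlib 3.10.9, and tables were joined in Python 3.11.15 with pandas 2.3.3.

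The members, the lists of other release genes and of markers, and the rules were chosen with earlier results of these data known. Fitted folds are given for members called in any contrast and for the 8 with the smallest p at each day. Of the other release genes, those called are named. The horizontal cell marker Septin4 was not matched.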

Additional observations from a re-analysis of the deposited data

How the results depend on the processing

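By edgeR the members called numbered 0 at day 7, 0 at day 14, 2 over both days, and 0 each for the interaction and the time contrasts. DESeq2 size factors in edgeR, the filter of at least 10 counts in at least 6 libraries and, where it could be run, the fit of only the groups compared gave the same numbers. Of all genes they called 24, 27 and 28 at day 7 and 6, 2 and 0 at day 14, in that order. Over both days the size factors gave 86 and the filter 90. The DESeq2 Wald test called 5 at day 7, 2 at day 14, 7 over both days, 1 in the interaction, 2 in the GFP time contrast and 2 in the Olig1 time contrast. Of all genes it called 954, 743, 1153, 527, 646 and 626 in the same order, against 34, 6, 98, 0, 0 and 5 by edgeR. Limma voom called 6 at day 7, 8 over both days and 1 in the Olig1 time contrast (409, 453 and 292 of all genes). With no filter the numbers were 4 at day 7, 6 over both days and 1 in the Olig1 time contrast (218, 401 and 59 of 25032 genes). Leaving out each library gave 0 to 1 at day 7 and 1 to 3 over both days, where 1 to 58 and 26 to 133 of all genes were called. The 3 members were called in the fit that called 133 genes. With replicates 1 and 3 of GFP day 14 both left out, so that its lone library is assumed to vary like the other groups, the numbers were 2 at day 7 and 0 over both days (91 and 43 of 19883 genes). Without the 4 libraries high in microglia markers, GFP day 14 was likewise left with a lone library, replicate 1. The members named for that fit in the Results rest on the same assumption about the spread of GFP day 14. The cause of these changes was not tested. Both medians of the members stayed above 0 when each library was left out, at 0.73 to 1.41 at day 7 and 0.02 to 0.56 at day 14. In the same fits the median of all genes ran from -0.25 to 0.19 at day 7 and from 0 to 0.20 at day 14. The lowest member median of day 14 lay within that range of all genes. Of the named log2 folds, 3 turned sign when a library was left out: Rimbp2 at day 7 ranged from -3.81 to 0.83 (without GFP day 7 replicate 2), Rph3a at day 14 from -0.50 (without Olig1 day 14 replicate 2) to 3.30, and Syt9 at day 7 from -1.47 to 0.085 (without GFP day 7 replicate 1).

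The same replicate numbers recur in every group, but same-numbered libraries did not deviate together (r -0.066 to 0.044 across genes), so the numbers were not taken as pairs. With a replicate block the members called were 0 at day 7, 0 at day 14, 2 over both days and 0 in the other contrasts. Of all genes it called 29 at day 7, 1 at day 14 and 64 over both days. Slc17a6 was no longer called (edgeR adjusted p 0.0684). Depth limits the members near 0: a library with 0 counts of a gene allows up to 0.109 to 0.239 CPM, and with 3 libraries a group a gene that fails the threshold is not shown to be equal between groups.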
